A study of Mus musculus with 22 samples.

Results

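The serotonin synthesis and transport genes Tph2, Slc6a4, Slc18a2, Ddc, Gch1, Maob, Maoa, En1 and Gata3 were followed across 22 libraries of mouse brain. These are 9 of the 24421 genes of the count tables. They were taken by gene name, as enzymes, transporters and transcription factors of serotonergic raphe neurons, and the choice was made with values of these libraries known. Tph2 and Slc6a4 entered because they were lower in dominant than in submissive females. The female contrast of rank is therefore given for all 9 genes as a description, with fold changes and no p, and nothing is read from how many of the 9 passed a threshold there. For the 9 genes, tests are read only in the males and in contrasts other than rank in females. For genes outside the 9, such as Cartpt, tests of rank in females are also given.

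The study used C57BL/6JOlaHsd mice housed in groups of 4 per cage and ranked at 10 to 12 weeks of age by the tube test, in which 2 mice meet in a narrow tube and one retreats. The mouse with the most wins of a cage was called dominant and the one with the fewest submissive, and both were killed 3 to 4 days after the test. Total RNA of the right hemisphere was sequenced from 7 dominant and 7 submissive males and from 4 dominant and 4 submissive females. The groups shared strain and age and differed in sex and rank, and mice that share a replicate number were cage mates.

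Neurons of the raphe nuclei, at the midline of the brainstem, make the serotonin of the brain and send axons to nearly all of its regions. Tph2, the neuronal tryptophan hydroxylase, makes 5-hydroxytryptophan from tryptophan in the rate-limiting step, for which Gch1, the first enzyme of tetrahydrobiopterin synthesis, supplies the cofactor. Ddc, the aromatic amino acid decarboxylase, makes serotonin from it, Slc18a2, the vesicular monoamine transporter, loads it into vesicles, and Slc6a4, the serotonin transporter, takes it back up from the cleft. Maoa and Maob, the monoamine oxidases, degrade it. En1 and Gata3 are transcription factors of the raphe, En1 also of midbrain dopamine neurons. Tph2 and Slc6a4 are the most restricted to serotonin neurons, while Ddc, Slc18a2 and Gch1 also serve catecholamine neurons and both oxidases are expressed widely, Maob also in astrocytes.

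The sequences before the start sites of Tph2, Slc6a4 and Slc18a2 are shown because the levels of these 3 genes moved together across libraries, with that of Maoa, which varied least over the 22 libraries. Of the 9 genes, 8 had an entry in the RefSeq promoter table (GRCm38.p6). Each run holds the 250 bases before the start, 5′ to 3′ on the gene's strand, for Tph2 chr10:115185023-115185272 (minus strand), Slc6a4 chr11:76998347-76998596 (plus), Slc18a2 chr19:59260628-59260877 (plus) and Maoa chrX:16619448-16619697 (plus). Capitals mark matches on either strand to the letters bound by GATA factors, which are AGATAA with its variants AGATAG (last base changed), TGATAA (first base changed) and also TGATAG (both changed).
Tph2: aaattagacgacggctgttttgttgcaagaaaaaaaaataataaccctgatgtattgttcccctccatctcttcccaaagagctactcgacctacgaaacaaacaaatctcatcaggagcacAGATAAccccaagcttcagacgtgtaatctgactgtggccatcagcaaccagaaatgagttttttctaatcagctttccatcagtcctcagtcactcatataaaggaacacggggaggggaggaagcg
Slc6a4: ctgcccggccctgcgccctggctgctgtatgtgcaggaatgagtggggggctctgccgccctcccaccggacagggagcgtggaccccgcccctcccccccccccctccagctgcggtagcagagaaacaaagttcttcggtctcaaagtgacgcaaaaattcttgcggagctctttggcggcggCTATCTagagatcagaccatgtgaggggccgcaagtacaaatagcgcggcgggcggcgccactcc
Slc18a2: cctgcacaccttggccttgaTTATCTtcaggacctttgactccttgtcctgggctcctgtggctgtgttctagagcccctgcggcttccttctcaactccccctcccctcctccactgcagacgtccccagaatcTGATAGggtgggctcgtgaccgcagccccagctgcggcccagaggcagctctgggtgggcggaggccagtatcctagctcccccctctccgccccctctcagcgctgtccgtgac
Maoa: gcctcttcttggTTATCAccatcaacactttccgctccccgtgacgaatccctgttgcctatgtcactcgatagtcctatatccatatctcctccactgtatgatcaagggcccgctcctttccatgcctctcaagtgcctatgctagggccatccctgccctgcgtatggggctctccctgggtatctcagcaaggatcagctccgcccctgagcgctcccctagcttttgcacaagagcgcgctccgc
A GATA match began 128 bases before the start of Tph2, 65 before that of Slc6a4, 230 and 115 before that of Slc18a2 and 238 before that of Maoa. Such a match stood in 26.5% of all 32851 promoters of this length, and in 5 of the 8 genes with an entry, Gch1 being the fifth. The Tph2 window held TATAAA 30 bases before the start and no GGGCGG. Those of Slc6a4 and Slc18a2 held no TATAAA but 3 and 2 matches to GGGCGG, and their G and C content was 64.8% and 64.0% against 43.6% for Tph2. TATAAA stood in 12.4% and GGGCGG in 32.7% of all promoters, on either strand. These matches are a description of the letters only.

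Depth was even, with 12403943 to 16488762 counts per library, so that 3 counts, the upper limit of a count of 0, amounted to 0.179 to 0.243 CPM (the count scaled to a common library size with TMM factors). This and every other limit from depth covers counting error only. The library of dominant male 1 stood apart, with a sum of 30.0 CPM over 6 cerebellum markers against 482 to 1110 CPM in the other 21 libraries. Of the transcription factors that define serotonin neurons, Fev was almost absent, with 0 to 2 counts per library and 8 in all 22, and Lmx1b had 0 to 6 counts. Tph1, the tryptophan hydroxylase of pineal and mast cells, had 1 to 10 counts. Tph2 itself had 29 to 342 counts and Slc6a4 5 to 178. The label of serotonergic raphe neurons thus rests here on the enzymes and transporters, not on Fev or Lmx1b. None of the 9 genes shared exon bases with another gene. In a whole hemisphere, fewer serotonin neurons, less raphe tissue in the sample taken and less RNA per neuron cannot be told apart.

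Per length, the oxidases were the highest of the 9 genes, with a mean over 22 libraries of 16.5 CPM per kb of exon for Maoa and 12.7 for Maob. Ddc followed with 10, then Slc18a2 with 5.03, Tph2 with 4.44 and Slc6a4 with 1.92 CPM per kb. Gch1 had 0.850, En1 0.289 and Gata3 0.241 CPM per kb. The range over libraries of each gene overlapped that of the next in this order, as for Slc18a2 (2.12 to 7.37 CPM per kb) and Tph2 (0.723 to 8.66), except that Maoa and Maob met at 15.1. Within every library Maoa was above Maob, by a ratio of 1.11 to 1.65. The ranges widened in a different order. From the lowest to the highest library the level changed 1.2-fold for Maoa and 1.51-fold for Maob, 2.18-fold for Ddc and 3.48-fold for Slc18a2, but 12-fold for Tph2 and 35.3-fold for Slc6a4. The Slc6a4 value rests on dominant female 3, with 5 counts, and was 13.2-fold without it. En1 changed 10.2-fold on 2 to 23 counts, where counting error is large.

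**Figure D1:**
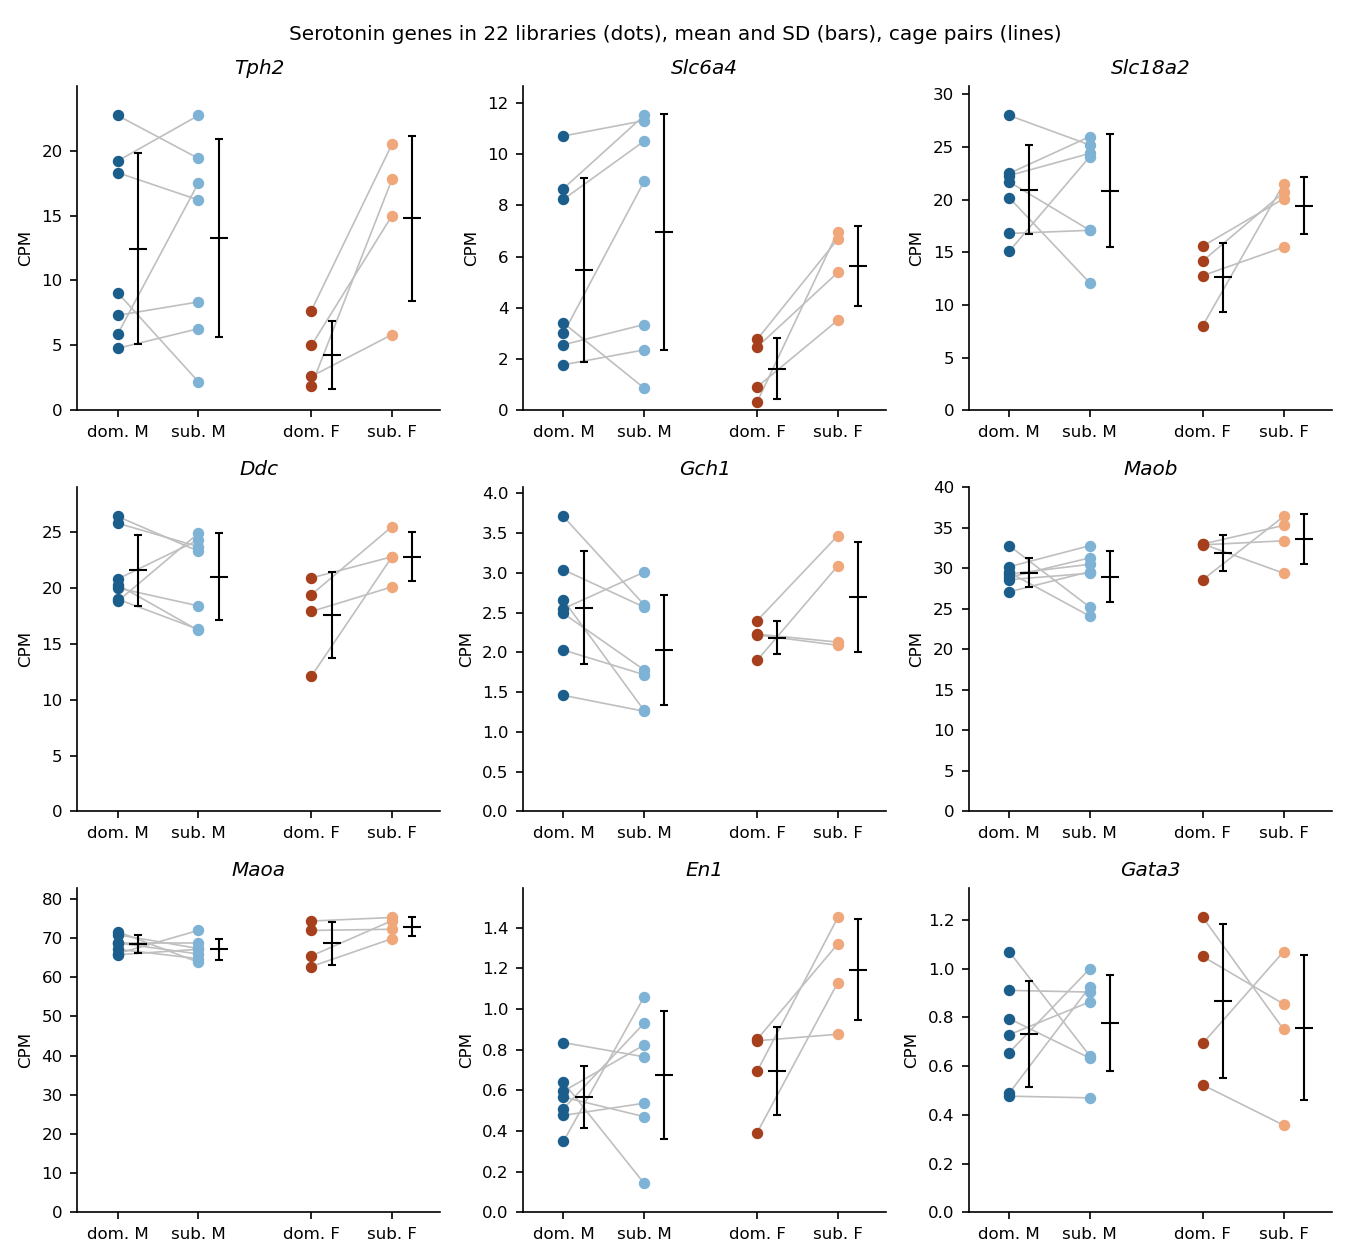
CPM of each of the 9 genes (vertical axis, from 0) in dominant (dom.) and submissive (sub.) males (M) and females (F); dots are libraries, black bars the mean and SD, grey lines join cage mates. Tph2 spans 2.21 to 22.7 CPM over the males, and the 4 dominant females lie between 1.90 and 7.69 CPM.

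In females, Tph2 and Slc6a4 were lower in dominant than in submissive mice, and Slc18a2 and Ddc had lower means by a smaller step. Tph2 stood at 7.69, 5.00, 1.90 and 2.62 CPM in dominant females 1 to 4 and at 20.5, 15, 17.8 and 5.84 CPM in submissive females 1 to 4. The groups overlapped through dominant female 1 and submissive female 4, and within each of the 4 cages the dominant mouse was lower. The log2 fold change was -1.77 (SE 0.320), a level 3.4-fold lower in dominant females. This SE, like every edgeR SE here, is the absolute log2 fold change divided by the square root of the quasi-likelihood F. DESeq2 gave -1.78 with a larger SE of 0.565, so the SE depended on the method.

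Slc6a4 had 2.77, 2.47, 0.327 and 0.915 CPM in dominant and 6.68, 5.38, 6.97 and 3.52 CPM in submissive females 1 to 4. Every dominant female was below every submissive female, and the log2 fold change was -1.77 (SE 0.314), or -1.80 (SE 0.623) by DESeq2. The value of dominant female 3 rested on 5 counts.

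For Slc18a2 the dominant females had 14.2, 15.6, 8.06 and 12.8 CPM and the submissive females 20.7, 20.1, 21.5 and 15.5 CPM (log2 fold change -0.62, SE 0.135). These groups overlapped narrowly, with dominant female 2 just above submissive female 4. Ddc had 19.4, 20.9, 12.1 and 17.9 CPM in dominant and 25.5, 22.8, 22.8 and 20.1 CPM in submissive females (-0.38, SE 0.113). By DESeq2 the SE was 0.224 for Slc18a2 and 0.18 for Ddc. In both genes the dominant mouse was the lower one in 4 of 4 cages, as it also was for Maoa and En1.

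The other members differed less or rested on few counts. En1 had 0.694, 0.844, 0.851 and 0.392 CPM in dominant and 1.45, 0.876, 1.32 and 1.13 CPM in submissive females, from 6 to 23 counts, with no overlap and a log2 fold change of -0.77 (SE 0.275). For Gch1 the 4 dominant females had a mean of 2.19 ± 0.208 CPM (SD, n = 4) and the 4 submissive ones 2.69 ± 0.694 CPM (-0.30, SE 0.187). It was lower in the dominant mouse in 2 of 4 cages. Maoa, at 68.6 ± 5.43 and 72.9 ± 2.42 CPM (SD, n = 4 each), differed by -0.09 (SE 0.0499), and Maob, at 31.9 ± 2.22 and 33.7 ± 3.08 CPM, by -0.08 (SE 0.0669) on the log2 scale. Gata3 was the only member with a higher mean in dominant females, 0.868 ± 0.314 against 0.759 ± 0.299 CPM (0.20, SE 0.330), from 6 to 20 counts.

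By edgeR's quasi-likelihood test, 2 of the 9 genes, Tph2 and Slc6a4, had an adjusted p under 0.05 in females, where 0.0942% of all 14865 genes tested were called (11 higher and 3 lower in dominant females). Slc6a4 and En1, 2 of 9, had all dominant females below all submissive females, against 2.10% of all genes. The count of 2 became 0 without any one of dominant females 3 and 4 or submissive females 1 and 3, and 3 with the replicate number as a block (36 of all genes). Since this contrast led to the choice of Tph2 and Slc6a4, which the other members varied with to different degrees, nothing is read from any of these counts.

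In males, no member was called by rank, although Tph2 and Slc6a4 varied widely. Tph2 ranged from 4.78 over a median of 9.06 to 22.7 CPM in the 7 dominant males and from 2.21 over 16.2 to 22.7 CPM in the 7 submissive males. The ranges nearly coincided, and the log2 fold change was -0.09 (SE 0.395; edgeR adjusted p = 1.00). Slc6a4 ranged from 1.78 over 3.41 to 10.7 CPM in dominant and from 0.872 over 8.93 to 11.5 CPM in submissive males. It was lower in the dominant mouse in 6 of 7 cages, with a log2 fold change of -0.35 (SE 0.448; adjusted p = 1.00 by edgeR). With the replicate number as a block the standard errors were smaller, 0.230 for Tph2 and 0.212 for Slc6a4, at log2 fold changes of -0.08 and -0.33, and neither was called (adjusted p = 1.00 by edgeR).

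Slc18a2 had 15.1, 21.7 and 28 CPM as lowest, median and highest in dominant males and 12.1, 24.1 and 26 CPM in submissive males (0.00, SE 0.154). Ddc had 18.8, 20.3 and 26.4 CPM against 16.2, 23.3 and 24.9 CPM (0.04, SE 0.11). Gch1 was the member with the smallest unadjusted p in males, 0.128, with 1.46, 2.55 and 3.71 CPM in dominant and 1.26, 1.78 and 3.01 CPM in submissive males. It was higher in the dominant mouse in 6 of 7 cages (0.34, SE 0.211; edgeR adjusted p = 1.00). With the replicate number as a block its log2 fold change was again 0.34, with a smaller SE of 0.147, and it was not called. Maoa (0.03, SE 0.0365) and Maob (0.02, SE 0.0653) had the smallest standard errors, and Gata3 changed by -0.09 (SE 0.223). En1 did not pass the expression filter in males, with 2 to 16 counts, and was not tested there.

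Of the 8 members tested in males, 0 were called by edgeR and, in the fit without a block, none had an unadjusted p under 0.05. Over all 14737 genes tested 0.00% were called and 194 had an unadjusted p under 0.05, and DESeq2 also called 0. Subtracting the male log2 fold change from the female one gave -1.67 (SE 0.684) for Tph2, -1.41 (SE 0.793) for Slc6a4, -0.62 (SE 0.258) for Slc18a2, -0.41 (SE 0.188) for Ddc and -0.63 (SE 0.316) for Gch1, given without a test because the female values chose the genes. Over all 15233 genes, edgeR called 0 for this difference, with 505 at an unadjusted p under 0.05.

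**Figure D2:**
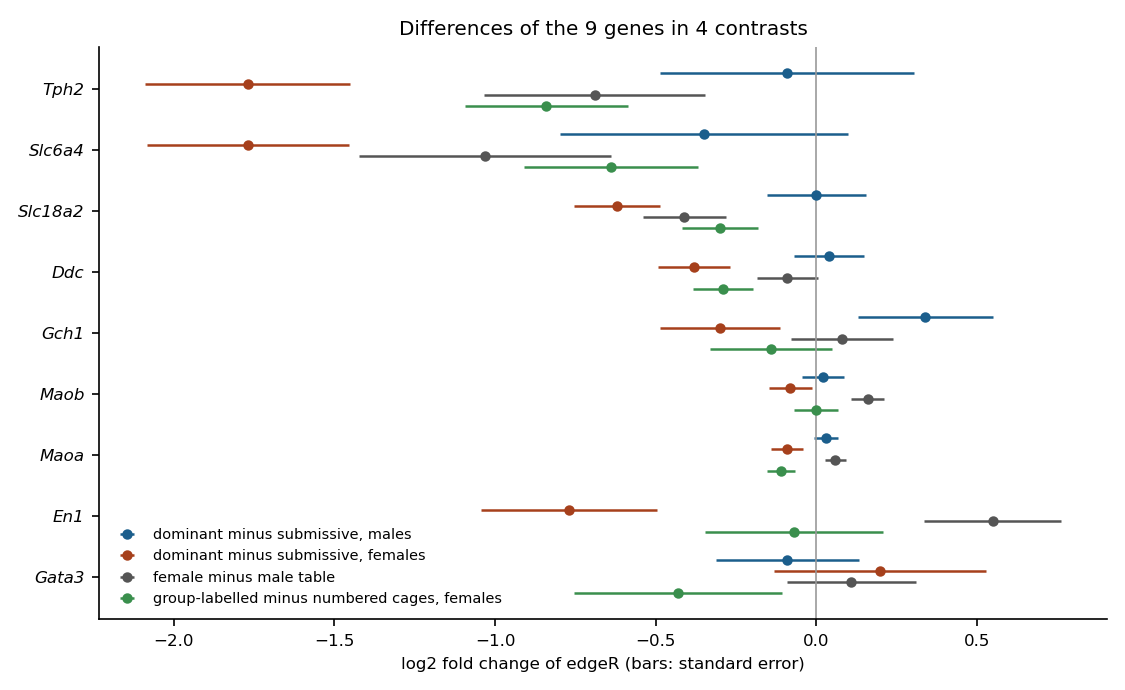
Log2 fold changes (horizontal axis) with standard errors (bars) from edgeR for each of the 9 genes in 4 contrasts. In females the fall in dominant mice is -1.77 for Tph2 and Slc6a4 and shrinks through Slc18a2 (-0.62) and Ddc (-0.38) to Maoa (-0.09), while the blue male values lie within 0.35 of 0; En1 has no male value.

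The spread of Tph2 and Slc6a4 among males, whatever their rank, was the widest of all well expressed genes. Over 11823 genes with a mean of at least 5 CPM in males, Slc6a4 ranked 1 and Tph2 ranked 2 by coefficient of variation, with 65.0% and 56.1% against a median of 7.62%. Slc18a2 (22.2%) ranked 128, Ddc (16.1%) 601, Maob (8.50%) 4834 and Maoa (3.68%) 11246. Without dominant male 1, Slc6a4 and Tph2 again ranked 1 and 2, at 62.4% and 55.1%.

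The males' Tph2 levels left a gap. Tph2 lay between 2.21 and 9.06 CPM in 7 males, 4 of them dominant, and between 16.2 and 22.7 CPM in the other 7, 3 of them dominant. Slc6a4 parted the same libraries, with 0.872 to 3.41 CPM in the former and 8.23 to 11.5 CPM in the latter. Over all 22 libraries no Tph2 value lay between 9.06 and 15 CPM, with 12 libraries below and 10 above, and no Slc6a4 value between 3.52 and 5.38 CPM. All 4 dominant females and submissive female 4 were below this gap, and the other 3 submissive females were above it.

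Cage mates in males mostly lay on the same side of it. In 6 of 7 male cages both mice were on one side, 3 cages below and 3 above, and the cage of replicate 6 was split, with 5.87 CPM of Tph2 in the dominant and 17.5 CPM in the submissive mouse. Across the 7 cages, the log2 CPM of the dominant and the submissive mouse had a Pearson's r of 0.51 for Tph2 (exact permutation p = 0.236, two-sided; rho = 0.61, exact p = 0.167) and 0.69 for Slc6a4 (exact permutation p = 0.0827; rho = 0.75, exact p = 0.0663). Neither passed adjustment over the 9 members, at an adjusted p of 0.533 and 0.491 from the exact permutation test. Without the 2 cages farthest from the median of the dominant mice, r was 0.18 for Tph2 and 0.50 for Slc6a4 over 5 cages. An r of at least that of Slc6a4 stood in 15.2% of all 14737 genes, whose median r was 0.27. This relation was examined after the values were seen. Cage, time of killing and neighbouring place in the library order cannot be told apart.

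**Figure D3:**
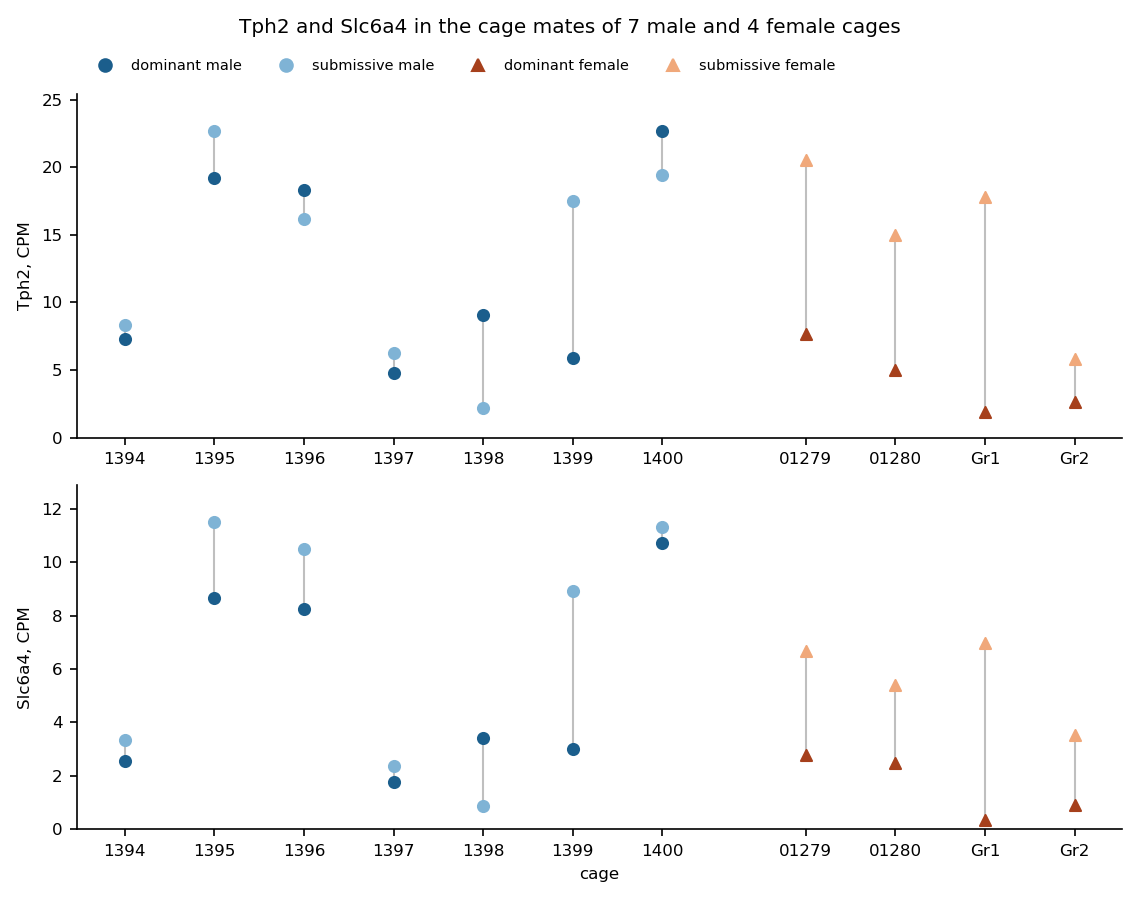
Tph2 (upper panel) and Slc6a4 (lower panel) in CPM for the dominant and the submissive mouse of each of 7 male cages (circles) and 4 female cages (triangles), grey lines joining cage mates. In females the dominant mouse is the lower one in 4 of 4 cages for both genes, and in males both mice of 6 of the 7 cages lie on the same side of the gap between 9.06 and 15 CPM of Tph2.

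Across males, in which the choice by rank in females had no part, the genes of serotonin synthesis and transport varied together with Tph2. The members were still chosen with values of these libraries known, so the p-values below may not be independent of the choice. Over the 14 male libraries, the log2 CPM of Slc6a4 had a Pearson's r with Tph2 of 0.98 (rho = 0.94), that of Slc18a2 0.94 (rho = 0.94), that of Ddc 0.77 (rho = 0.79) and that of Gch1 0.77 (rho = 0.74). By a two-sided permutation test with 100000 resamples, the p for r was 1e-05 for Slc6a4, the smallest these resamples can give, 2e-05 for Slc18a2, 0.00145 for Ddc and 0.00128 for Gch1. The adjusted p over the 8 relations was 8e-05 for the first pair and 0.00290 for Ddc and Gch1. This test takes the 14 males as exchangeable, although cage mates mostly lay on the same side of the gap. With 1 mouse per cage, Ddc and Gch1 passed in the 7 dominant males (r = 0.83 and 0.87; adjusted exact permutation p = 0.0178 and 0.00794) but not in the 7 submissive males (0.75 and 0.81; adjusted exact permutation p = 0.0591 each), whereas Slc6a4 and Slc18a2 passed in both. For rho the permutation p was 1e-05, 1e-05, 0.00144 and 0.00346 in the same order, and the adjusted p 4e-05, 4e-05, 0.00384 and 0.00692.

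The remaining members did not pass. Maob had r = 0.50 (rho = 0.55; adjusted permutation p = 0.106 and 0.0703), Gata3 0.48 (rho = 0.31; 0.106 and 0.312), En1 0.46 (rho = 0.52; 0.108 and 0.0817) and Maoa -0.10 (rho = -0.09; 0.730 and 0.762). Unadjusted permutation p-values for r were 0.0711 for Maob, 0.0798 for Gata3, 0.0944 for En1 and 0.730 for Maoa. Without the 2 libraries farthest from the median Tph2 level, r was 0.97 for Slc6a4, 0.89 for Slc18a2, 0.85 for Ddc and 0.62 for Gch1, and Gch1 was no longer called while En1 was (0.63; adjusted permutation p = 0.0467). Maoa had r = -0.93 within the 7 dominant males (adjusted exact permutation p = 0.0127) and 0.42 within the 7 submissive males (adjusted exact permutation p = 0.352), a difference that was not tested.

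The relation was also computed in 2 blocks of male cages. In the cages of replicates 1 to 4 (8 libraries) r with Tph2 was 0.98 for Slc6a4, 0.87 for Slc18a2, 0.77 for Ddc and 0.82 for Gch1, and in those of replicates 5 to 7 (6 libraries) it was 0.99, 0.99, 0.92 and 0.74. Maob and Gata3 differed most between the blocks, at 0.21 and 0.15 in the former and 0.81 and 0.77 in the latter. The libraries on each side of the gap in Tph2 (7 each) were also taken alone, a split made on Tph2 after its values were seen, which narrows its range and so lowers r. Below the gap, r with Tph2 was 0.97 for Slc6a4 (rho = 0.89; exact permutation p = 0.00298, adjusted p = 0.0476 over 16 relations), 0.85 for Slc18a2 (exact p = 0.0177, adjusted 0.141), 0.68 for Gch1 (exact p = 0.0736, adjusted 0.393) and -0.01 for Ddc (exact p = 0.987). Above it, r was 0.46 for Slc6a4, 0.65 for Slc18a2, 0.39 for Gch1 and 0.18 for Ddc, with exact permutation p-values from 0.116 to 0.723.

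In the 8 females, given as a description, r with Tph2 was 0.95 for Slc6a4, 0.92 for Slc18a2, 0.88 for Ddc and 0.76 for Gch1, and with the rank means removed 0.88, 0.82, 0.78 and 0.70. Maoa, at -0.10 in males, had 0.72 in females. Slc6a4 and Slc18a2 had r = 0.91 in males with each other, and Maoa and Maob 0.01. All libraries of a sex share one count table and are scaled together, so these values are not free of shared depth and processing.

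**Figure D4:**
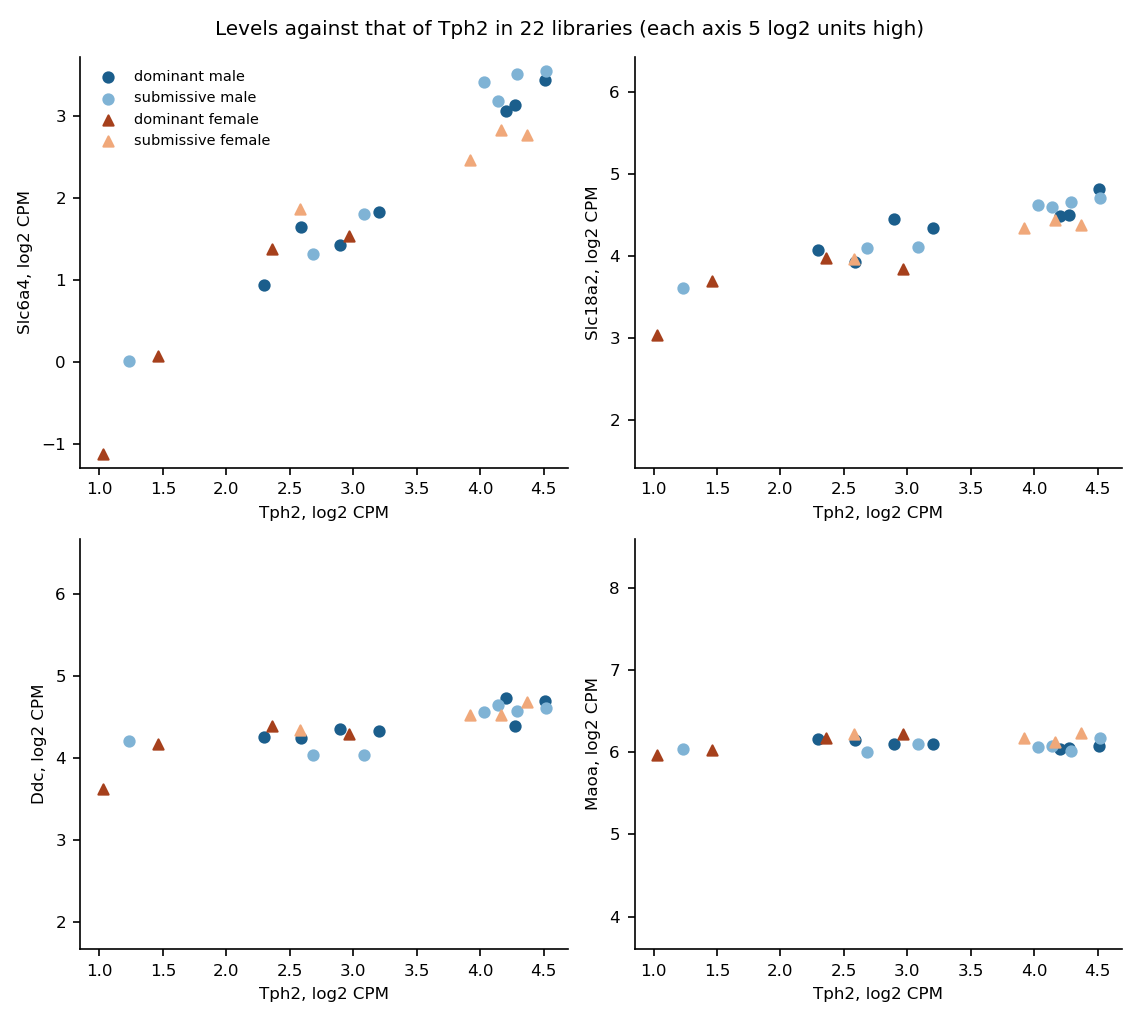
Log2 CPM of Slc6a4, Slc18a2, Ddc and Maoa (vertical axes, each 5 log2 units high) against log2 CPM of Tph2 in 22 libraries, circles for males and triangles for females. Slc6a4 climbs steeply with Tph2 (r = 0.98 in males), Slc18a2 and Ddc with smaller slopes (0.94 and 0.77), and Maoa spans the least (r = -0.10 over all males).

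The proportions between members were also compared within libraries. Slc6a4 per Tph2, as a ratio of CPM per kb, was 0.437 ± 0.0839 (SD, n = 14) in males and 0.365 ± 0.120 (SD, n = 8) in females. It was lowest in dominant female 3, at 0.165, where Slc6a4 had 5 counts. Slc18a2 per Tph2 varied more, from 0.790 to 3.79 in males and from 0.695 to 3.38 in females.

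Among 14668 genes that passed the filter in both sexes, Slc6a4 ranked 1, Slc18a2 ranked 2, Ddc ranked 10 and Gch1 ranked 13 by r with Tph2 over the 14 males. The median r of all genes was 0.01 and the 99th percentile 0.61. The 10 other genes nearest to Tph2 were Cartpt (0.84), Rrad (0.80), Alkbh5 (0.80), Adamts2 (0.80), Pnp2 (0.79), Mettl7a1 (0.79), Tbc1d13 (0.78), Ankrd6 (0.77), BC017158 (0.77) and Pitpnb (0.76). Of these, Cartpt and Ankrd6 had a high r in the 8 females too, 0.91 and 0.68, while the other 8 lay between -0.42 (Pitpnb) and 0.22 (Adamts2). The 99th percentile in females was 0.81. These r are a description of the 14 and 8 libraries, and the genes were picked from many.

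Cartpt, a neuropeptide gene of the hypothalamus and of other nuclei, had 7.62 to 23.2 CPM in males, 7.86 to 9.27 CPM in dominant and 10.3 to 21.8 CPM in submissive females. Its log2 fold change was -1.09 in dominant against submissive females (SE 0.165; edgeR adjusted p = 0.0266). That call was lost with the exon length trend removed, with all 22 libraries in 1 fit, and without any one of dominant female 3 or submissive females 1 and 3, settings in which no gene was called lower.

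**Figure D5:**
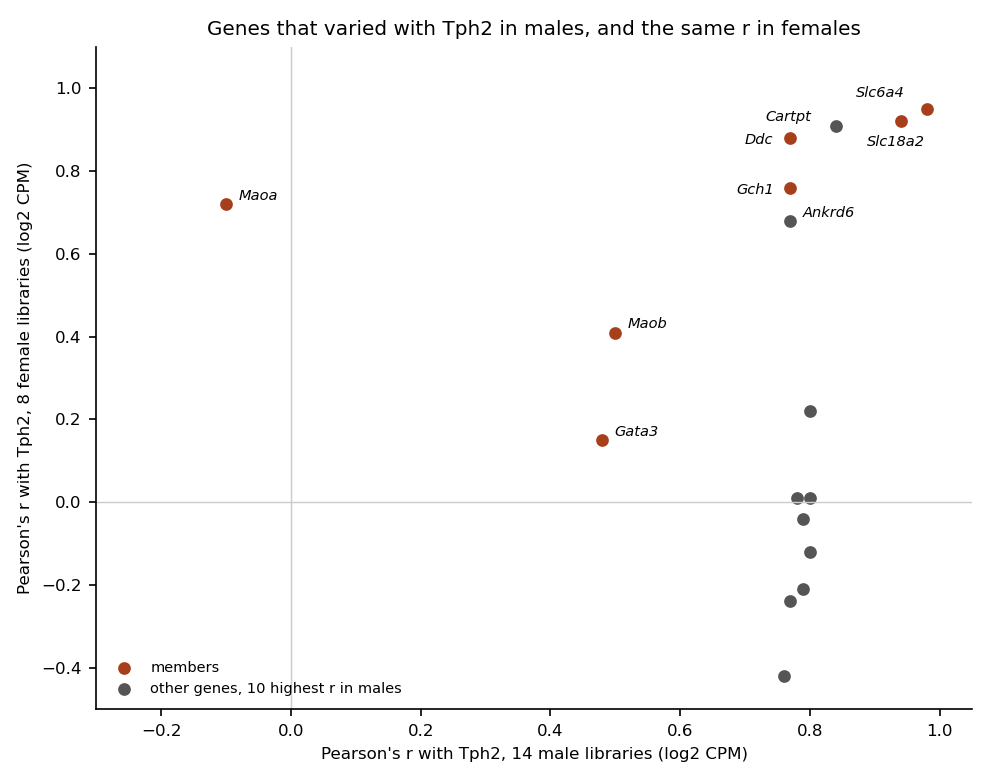
Pearson's r with Tph2 over the 14 male libraries (horizontal axis) and over the 8 female libraries (vertical axis) for the members (red) and for the 10 other genes with the highest r in males (grey). Slc6a4, Slc18a2, Ddc, Gch1 and Cartpt are high in both sexes, whereas 8 of the grey genes fall between -0.42 and 0.22 in females; En1 is not drawn because it did not pass the male filter.

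Between the female and the male table the members differed in both directions. The female side holds the dominant females that led to the choice of Tph2 and Slc6a4, so the differences of these genes are a description: -1.03 (SE 0.392) for Slc6a4 and -0.69 (SE 0.343) for Tph2 on the log2 scale. Slc18a2, which varied with them across libraries, differed by -0.41 (SE 0.129), likewise given as a description. Maob (0.16, SE 0.0520; edgeR adjusted p = 0.0159) and En1 (0.55, SE 0.213; adjusted p = 0.0458 by edgeR) were higher. Of all 15233 genes 36.2% were called (2800 higher and 2712 lower in females), so nothing is read from the calls of Maob and En1. Ddc (-0.09, SE 0.0942), Gch1 (0.08, SE 0.159), Maoa (0.06, SE 0.0316) and Gata3 (0.11, SE 0.200) did not pass. Sex and count table cannot be told apart.

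These values depended on the mice compared. With submissive mice only, Slc6a4 differed by -0.33 (SE 0.417), Tph2 by 0.14 (SE 0.379) and Slc18a2 by -0.11 (SE 0.158), again as a description. Only 1 of 9 members, Maoa, was called there, where 25.9% of all genes were called. With dominant mice only, which set the females that led to the choice against males, the differences were -1.53 for Tph2, -1.74 for Slc6a4 and -0.73 for Slc18a2, and no test is read. In DESeq2, 2 of 9 members, Slc18a2 and Maob, were called, where 34.1% of all genes were called. En1 had the same fold change there as in edgeR (0.55) and missed the threshold (DESeq2 adjusted p = 0.058). In edgeR it also missed it without the expression filter (edgeR adjusted p = 0.0583) and with the exon length trend removed (edgeR adjusted p = 0.0545). Markers of other brainstem and midbrain neurons were lower in the female table as well: the glycine transporter Slc6a5 (-0.99, SE 0.209; edgeR adjusted p = 0.000524), the glycine receptor Glra1 (-0.58; adjusted p = 0.000994 by edgeR), the dopamine enzyme Th (-0.36; edgeR adjusted p = 0.000592) and the dopamine transporter Slc6a3 (-0.36; adjusted p = 0.000448 by edgeR). The 15 markers of brainstem position and glycine neurons summed to 16.8 to 51.3 CPM in males and 9.04 to 22.7 CPM in females. Their part in the lower Slc6a4 and Slc18a2 was not tested.

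The library names give female cages by a number for replicates 1 and 2 and by a group label, Gr1 and Gr2, for replicates 3 and 4. Each kind thus holds 2 cages, and the fit takes the 2 mice of a cage as separate replicates, so its p-values do not measure the spread between cages. With rank as a term, the log2 fold change of Tph2 in the group-labelled cages was -0.84 (SE 0.254; edgeR adjusted p = 0.700). It had 1.90 to 17.8 CPM in the group-labelled and 5.00 to 20.5 CPM in the numbered cages. Slc6a4 (-0.64, SE 0.271), Slc18a2 (-0.30, SE 0.119) and Ddc (-0.29, SE 0.0939) had estimates below 0 too, each short of the threshold, whereas the estimate for Maob was 0.00 (SE 0.0685). In this contrast 0 of 9 members were called by edgeR, 0.00673% of all 14865 genes were called and 824 had an unadjusted p under 0.05. Without the expression filter Tph2 was called (-0.85, edgeR adjusted p = 0.0147), and without submissive female 3 likewise (-1.55, edgeR adjusted p = 0.000296), both with mice in place of cages as replicates. Without submissive female 4 the value shrank to -0.50 (edgeR adjusted p = 0.932). Over all libraries left out in turn it ran from -1.55 to -0.50 for Tph2 and from -1.22 to -0.44 for Slc6a4, and Slc6a4 was -1.06 by DESeq2, short of the threshold throughout. The methods state that intermediate females were regrouped into new cages and tested again, but not which cages these are.

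Other genes of the pathway were grouped in 4 lists. Of the raphe regulators and autoreceptors 7 of 10 were tested, and 4 of 7 were below 0 in females (median log2 fold change -0.06) and 2 of 7 in males (0.03). Fev was too low to test. Between the tables, En2 (0.56; edgeR adjusted p = 0.0158) and the serotonin receptor Htr1b (0.66; adjusted p = 1.48e-05 by edgeR) were higher in females and 5 did not pass. In that contrast 36.2% of all 15233 genes were called, a share that stands beside the table calls of every list. The 7 genes that make or recycle tetrahydrobiopterin had a median of -0.10 in females, with 6 of 7 below 0, and -0.00 in the 6 tested in males. Pts, Qdpr and Pcbd2 were higher and Spr was lower in the female table.

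Genes of breakdown and of other monoamine transporters were below 0 in 7 of 8 in females (median -0.07) and in 4 of 7 in males (median -0.04). Aldh2 was higher and Slc6a3 lower in the female table. Tryptophan entry and the kynurenine route, with 11 of 12 genes in the tables, had a median of 0.06 in females (4 of 8 below 0) and -0.08 in males (6 of 7 below 0). Its amino acid transporter genes Slc7a5 and Slc3a2 were higher and Slc7a8 lower in the female table. The median over all genes was -0.00 in both sexes, and none of these 4 lists had a gene called by rank.

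Markers of other cell types were set beside the female values. Catecholamine and histamine neuron markers were below 0 in dominant females in 6 of 6 tested (median -0.22), with none called. Their sum was 28.4 to 41.3 CPM in dominant and 38.6 to 42.7 CPM in submissive females. Phox2a had at most 2 counts in any library. Hypothalamus markers were below 0 in 7 of 7 (median -0.34), with Cartpt called. Their sums ran from 35.4 to 68.0 CPM for the dominant females and from 69.1 to 80.6 CPM for the submissive ones. These ranges missed each other narrowly, and how often other sums part this way was not tested. Cartpt had the largest step between the group means of these markers (8.66 against 18.4 CPM). Pmch, the marker with the highest means, differed less (25.4 against 27.6 CPM). In males the medians of the 2 lists were 0.07 and -0.01, and their sums had r = 0.14 and 0.60 with Tph2, against 0.65 and 0.73 in females. The part of these markers in the lower Tph2 and Slc6a4 was not tested.

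Single markers of the catecholamine and histamine list differed in r with Tph2. In males it was 0.68 for Dbh, the noradrenaline-making dopamine beta-hydroxylase, on 18 to 49 counts, above the 99th percentile of 0.61, and 0.46 for Hdc, the histidine decarboxylase, but 0.07 for Th, -0.08 for Slc6a3 and -0.10 for Slc6a2. In females r was 0.66 for both Dbh and Hdc, 0.71 for Th, 0.48 for Slc6a3 and 0.55 for Slc6a2. Th had r = 0.53 with Ddc in males and 0.89 in females. The part of Dbh in the spread of Tph2 among males was not tested. Cerebellum markers (median -0.02 in females and -0.25 in males, none called), astrocyte markers (0.00 and -0.03, none called) and brainstem markers (2 tested in females, median -0.12, and 3 in males, -0.08, none called) were set beside them too. Cbln1 was higher and Aldh1l1 and Gja1 lower in the female table. The 2 further raphe markers that could be tested, Gata2 and Htr1a, had a median of -0.20 in dominant females and 0.06 in males, none called. They did not rise with Tph2 in males, at r = -0.37 for Gata2 (9 to 27 counts) and -0.14 for Htr1a. In females r was 0.44 and 0.46. The 7 markers of pineal and mast cells were too low to test, and summed to 0.262 to 1.09 CPM.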

How the data were processed

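Raw counts per gene were deposited by the authors in one table for 14 males and one for 8 females. Per the labels and methods, rRNA-depleted, stranded single-end reads were trimmed with cutadapt 1.15, mapped to mm10 with STAR 2.6.0a and counted with featureCounts 1.6.2. The strand setting and the treatment of reads with several places were not given in the sources used here. CPM and log2 CPM (prior count 2) were computed from the deposited counts with TMM factors over 22 libraries, and CPM per kb with the exon length of the tables. Genes that passed edgeR's filter (minimum count 10, total 15) were tested with the quasi-likelihood test of edgeR 4.0.16 (R 4.3.3), within each sex by rank, between the tables over 4 group means, and between cage kinds with rank as a term, with Benjamini-Hochberg adjustment over all genes and a threshold of 0.05. The code was tested on simulated data.

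The members, the marker and pathway lists and the rule for named genes were chosen with earlier results of these data known. The rule names the 9 members, the 10 genes outside them nearest to Tph2 in males, and of each list those called in any contrast, or otherwise up to 3. Some genes of the lists are not reported here by name. Replicate numbers pair the samples, because library names give the same cage and both mice of a cage were killed together; deviations from group means had a mean r of 0.157 for cage mates in males (others -0.0261) and 0.0211 in females (others -0.00703). Separate cages are the only stated independence of replicates. Replicate libraries of a group differed beyond sampling noise (chi-square per gene 1.80 to 16.2 over 54 pairs). Alternatives were DESeq2 1.42.0, its size factors in edgeR, no filter, the replicate block, removal of each library's trend on exon length (loess span 0.3), 22 libraries in one fit, other priors and subsets for r, and leaving out each library.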

Additional observations from a re-analysis of the deposited data

Results flagged for a closer look

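Over 36 groups of values (9 genes in 4 groups), 1 library lay apart by Dixon's test, which chance alone gives in about 1 of 20 groups. Maob had 28.6 CPM in dominant female 3, while the other 3 dominant females lay between 32.9 and 33.0 CPM. Dominant female 3 had the lowest level of all 8 females for Maob and also for Tph2, Slc6a4, Slc18a2, Ddc, Gch1 and Maoa.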

How the results depend on the processing

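The count of members called in females, 2, from which nothing is read because this contrast led to the choice of Tph2 and Slc6a4, fell to 0 with the exon length trend removed and to 0 with all 22 libraries in 1 fit, at fold changes of -1.76 to -1.75, and was 0 to 3 when 1 library was left out. DESeq2's own filter on low counts left 8 of the 9 members without an adjusted p in females, so it gives no count there. Over all genes, the 14 calls in females became 78 with DESeq2 (73 higher, 5 lower), 84 without the filter (65 and 19), 36 with the replicate block (27 and 9), 8 with the block and the length trend removed (3 and 5), 0 with the length trend removed and 0 in 1 fit of all libraries, and 0 to 77 when 1 library was left out. The replicate block changed no call of a member in males, 0 with and without it, and in females it gave 3. The table contrast called 4 of 9 members, Slc6a4 and Slc18a2 included, beside 36.2% of all genes. With DESeq2 it called 2 of 9, beside 34.1%, and with submissive mice only 1 of 9, beside 25.9%. Without the filter it called 3 of 9, beside 25.6%. With the length trend removed it called 3 of 9, beside 34.9%, En1 being lost in both. With submissive mice only, Tph2 reversed from -0.69 to 0.14. The cage contrast called 1 member without the filter and 0 to 1 when 1 library was left out. Members correlated with Tph2 fell from 4 to 2 within submissive males, were 5 within dominant males, with Maoa added at r = -0.93, were 4 without the 2 farthest libraries, with En1 in place of Gch1, and were 5, with Gata3 added, without dominant male 1, a setting chosen after seeing the data. Fold changes when 1 library was left out ran from -2.20 to -1.52 for Tph2, from -2.14 to -1.44 for Slc6a4, from -0.74 to -0.45 for Slc18a2, from -0.47 to -0.23 for Ddc and from -0.41 to -0.15 for Gch1 in females, and from -0.31 to 0.09 for Tph2, from -0.61 to -0.19 for Slc6a4 and from 0.22 to 0.45 for Gch1 in males. The cause of these changes was not tested. Depth limits En1, Gata3 and the lowest Slc6a4 values most.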
